A study of Mus musculus with 7 samples.

Results

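Epithelial-mesenchymal transition (EMT) genes were followed here as a set of 10: the cadherin genes Cdh1, Cdh2 and Cdh3, the vimentin gene Vim, and the transcription factor genes Snai1, Snai2, Twist1, Twist2, Zeb1 and Zeb2. They were chosen by symbol, and each of the 10, of 19938 genes measured, had 1 probe set of its own. Expression was measured with 1 Affymetrix Mouse Gene 1.0 ST array per sample, in log2 units. The samples were parental B16F10 cells, a pigmented mouse melanoma line, and clone A1, both labelled PECAM1- (n = 2); the B16F10 clones A2, A3, A4 and A5, labelled PECAM1+ (n = 4); and mouse dermal endothelial cells (MDEC, n = 1). PECAM1, also called CD31, is a cell contact protein best known from endothelium. No treatment of the cells is given. Each clone is 1 array, the labels do not say how the clones were derived or whether they arose independently, and they do not name separate cultures. The p-values therefore reflect the spread among these arrays alone, and that spread may be technical. MDEC were grown with an endothelial growth supplement and all B16F10 samples in medium with 10% serum, so medium and cell type cannot be told apart.

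Classical cadherins hold like cells together through their extracellular repeats and are tied to actin by catenins. In EMT, a cell lowers E-cadherin (Cdh1), often raises N-cadherin (Cdh2) and vimentin, and detaches from its layer, and this exchange is called the cadherin switch. Snail, Twist and Zeb factors bind E-box motifs and repress epithelial genes such as Cdh1, and microRNAs of the miR-200 family repress Zeb1 and Zeb2 in turn. Melanocytes come from the neural crest, and ZEB2 and SNAI2 are factors of the melanocyte lineage, so melanoma cells can hold some EMT factors without a transition in the epithelial sense.

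The mature miR-200 family is shown because its members are the best known repressors of the Zeb pair, and the seed, bases 2 to 8, is in capitals. The sequences are from RefSeq on GRCm38.p6, 5′ to 3′. The miR-200a, miR-200b and miR-429 genes lie together on the minus strand of chromosome 4, and the miR-200c and miR-141 genes on the minus strand of chromosome 6.
miR-200b-3p, chr4:156055685-156055706: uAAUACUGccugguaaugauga
miR-200c-3p, chr6:124718324-124718346: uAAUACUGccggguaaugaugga
miR-429-3p, chr4:156053916-156053937: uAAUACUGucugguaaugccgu
miR-200a-3p, chr4:156054911-156054932: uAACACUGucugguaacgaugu
miR-141-3p, chr6:124717917-124717938: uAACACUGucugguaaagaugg
The first 3 share the seed AAUACUG and the other two the seed AACACUG.

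The region before the Snai1 start is shown because Snai1 was one of the factors that differed between cell types and because it holds an E-box of the kind that Snail and Zeb factors bind. It is the 250 bases upstream of the RefSeq start of Snai1 on GRCm38.p6, plus strand, with the E-box CACCTG in capitals.
Snai1, chr2:167537945-167538194: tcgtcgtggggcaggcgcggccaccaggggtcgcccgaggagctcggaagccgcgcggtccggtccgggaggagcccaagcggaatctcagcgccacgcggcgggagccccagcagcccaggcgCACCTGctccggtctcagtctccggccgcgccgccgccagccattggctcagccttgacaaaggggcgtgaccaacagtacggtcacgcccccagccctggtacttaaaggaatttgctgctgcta
The motif, searched as CACCTG on both strands, starts 126 bases before the gene's start. It occurred in 17.2% of the 32851 start regions of the same length in the RefSeq table, and in none of the regions of Vim, Twist1, Twist2 and Zeb2, the other genes of the set with sequence used here. A match of letters does not show binding.

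Endothelial and melanocyte marker genes followed the labels. In MDEC, 9 of 10 endothelial markers were at least 4-fold higher than in B16F10 and outside its range, with Vwf as the exception. All 8 of 8 melanocyte markers were at least 4-fold lower and outside that range. Of all genes, 2.72% passed as higher and 2.01% as lower. The array medians lay between 6.12 and 6.18. Clone A1 stood apart from the other B16F10 arrays. Its 7 measured cell cycle markers had a median level of 6.92, where the other 5 B16F10 arrays had 10.9 to 11.1 and MDEC 7.67. Results are therefore given against parental cells and clone A1 together and against each alone, with the lone sample assumed to vary like the PECAM1+ clones. Levels of different probe sets are not comparable with each other, so every comparison below is within a gene, across samples.

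**Figure D1:**
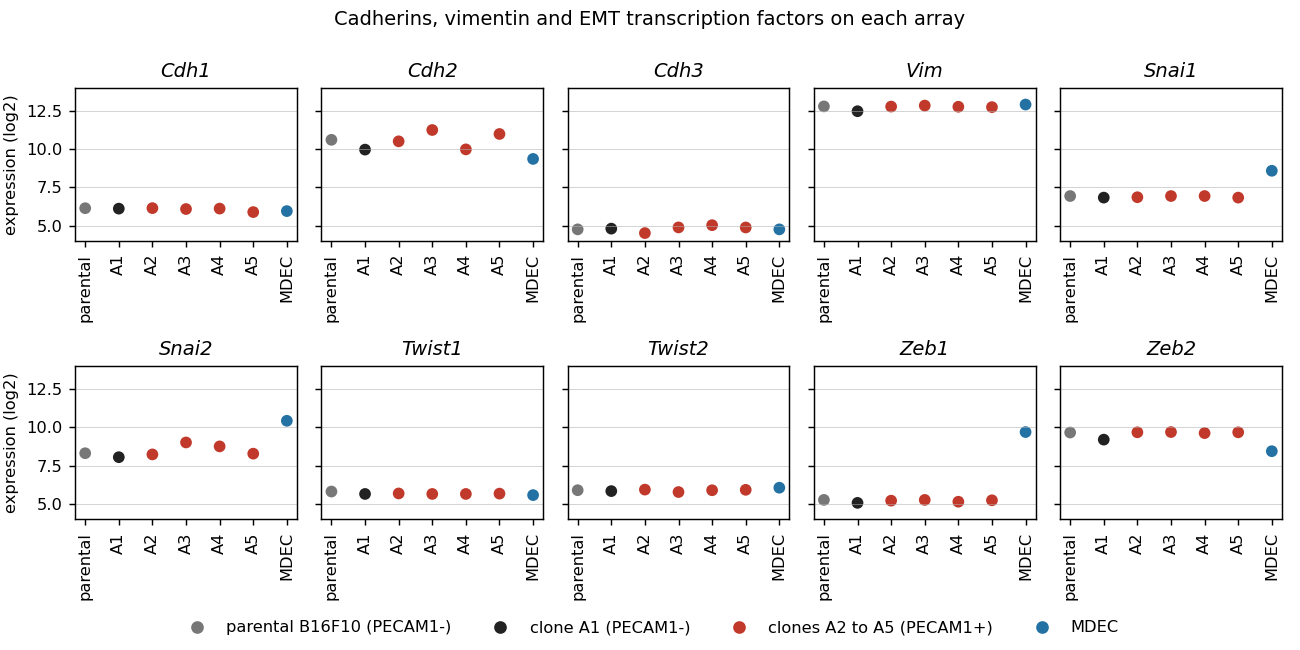
Expression of the 10 genes on each array (vertical axis, log2; horizontal axis, samples), 1 point per array with no error bars since each sample has 1 array. Zeb1 is at 9.68 in MDEC and between 5.08 and 5.27 in all 6 B16F10 arrays, while Zeb2 and Cdh2 have their lowest point in MDEC.

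None of the 10 genes was called between the PECAM1+ clones and the PECAM1- samples. Against both PECAM1- samples, limma called 0 of the 10 (adjusted p from 0.542 to 0.980), 0 of the 10 had an unadjusted p under 0.05, and the groups overlapped for all 10. Of all genes tested, limma called 0.0100%, 9.18% had an unadjusted p under 0.05 and 16.4% had groups that did not overlap. The median difference of the 10 genes was 0.05 log2 units, beside 0.00 over all genes, with 8 of the 10 above 0 (10039 of all 19938 genes). Against clone A1 alone 9 of the 10 were above 0 (10236 of all genes), with a median of 0.10. Against parental cells alone 4 of the 10 were above 0 (9621 of all genes), with a median of −0.01. Against parental cells alone limma also called 0 of the 10 (0.0100% of all genes), and 1 of the 10, Twist1, did not overlap (42.7% of all genes). Against clone A1 alone limma called 2 of the 10, Vim and Zeb2, both higher in the PECAM1+ clones, where 20.5% of all genes were called, 9.33% as higher and 11.2% as lower. Clone A1 lay outside the range of the PECAM1+ clones for 5 of the 10, beside 59.9% of all genes. These comparisons share the same 4 PECAM1+ clones.

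For both epithelial cadherins the PECAM1 groups overlapped and MDEC lay within the B16F10 values. Cdh1 (E-cadherin, the main cadherin of epithelia and of keratinocyte contacts with melanocytes) was at 6.15 in the parental line, 6.12 in clone A1, 6.15, 6.09, 6.12 and 5.89 in clones A2 to A5, and 5.96 in MDEC. Clone A5 was the lowest. The limma difference of PECAM1+ from PECAM1- samples was −0.07 ± 0.08 (SE; 95% interval −0.27 to 0.14; adjusted p = 0.744). Cdh3 (P-cadherin, of basal epithelial cells), whose gene lies next to Cdh1 on chromosome 8, was at 4.77 in the parental line, 4.82 in clone A1, 4.53, 4.90, 5.04 and 4.89 in clones A2 to A5, and 4.77 in MDEC. Its lowest and highest B16F10 arrays were both PECAM1+ clones, A2 and A4, its range of 0.51 units was wider than that of 65.0% of genes, and its difference was 0.05 ± 0.14 (SE; 95% interval −0.31 to 0.40; limma adjusted p = 0.909).

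Cdh2 (N-cadherin, of neural and mesenchymal cells) varied most among the clones. It was at 10.60 in the parental line, 9.96 in clone A1, 10.50, 11.24, 9.98 and 10.98 in clones A2 to A5, and 9.35 in MDEC. Clones A3 and A5 were above parental cells, and clone A4, which is PECAM1+, was level with clone A1, so the values did not follow PECAM status. The B16F10 range of 1.28 log2 units (2.42-fold) was wider than that of 93.2% of genes, and Cdh2 was the only 1 of the 10 with a range of at least 1 unit (11.7% of all genes). The difference between the groups was 0.39 ± 0.40 (SE; 95% interval −0.60 to 1.39; limma adjusted p = 0.685). Against clone A1 it was 0.71 ± 0.54 (limma adjusted p = 0.473) and against parental cells 0.07 ± 0.54 (limma adjusted p = 1.00, and the sign turned without clone A3, to −0.11, or clone A5, to −0.028). Over the 6 B16F10 arrays the genes most like Cdh2 among 2230 with a range of at least 1 unit were Steap1 (Pearson r = 0.993), Slc16a13 (0.989) and Cfap70 (0.988), a description over 6 arrays that share parental origin and platform. Steap1, for example, was at 8.51 in clone A3 and 7.45 in clone A4.

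Vimentin, the intermediate filament protein of mesenchymal cells and melanocytes, stayed within a narrow band outside clone A1. Vim was at 12.77 in the parental line, 12.46 in clone A1, 12.76, 12.83, 12.75 and 12.73 in clones A2 to A5, and 12.89 in MDEC. MDEC was the highest array and clone A1 the lowest. Vim was higher in the PECAM1+ clones than in clone A1 by 0.31 ± 0.05 log2 units (SE; 1.24-fold; limma adjusted p = 0.0207), and this call was lost without clone A2 (limma adjusted p = 0.0654), A4 (0.0553) or A5 (0.0544), in a range of 0.0112 to 0.0654 over all alternatives run. Against parental cells the difference was −0.01 ± 0.05 (limma adjusted p = 1.00).

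The Snail factors differed between the cell types and, for Snai2, among the clones. Snai1 (Snail, a repressor of Cdh1) was at 6.94 in the parental line, 6.84 in clone A1, 6.86, 6.94, 6.94 and 6.84 in clones A2 to A5, and 8.58 in MDEC. The 6 B16F10 arrays spanned 0.10 log2 units, and MDEC stood above all of them. Snai2 (Slug, a Snail paralogue needed in neural crest and melanoblasts) was at 8.31 in the parental line, 8.05 in clone A1, 8.23, 9.01, 8.75 and 8.28 in clones A2 to A5, and 10.42 in MDEC. Clones A3 and A4 were above the other 4 B16F10 arrays, so the PECAM1+ clones fell on both sides of parental cells. Its B16F10 range of 0.96 units was wider than that of 87.2% of genes. The differences between PECAM1+ and PECAM1- samples were 0.01 ± 0.06 (SE; limma adjusted p = 0.980) for Snai1 and 0.39 ± 0.26 (SE; 95% interval −0.26 to 1.04; limma adjusted p = 0.559) for Snai2.

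The Twist genes, basic helix-loop-helix factors of mesoderm and neural crest, were flat. Twist1 was at 5.81 in the parental line, 5.66 in clone A1, 5.69, 5.66, 5.66 and 5.68 in clones A2 to A5, and 5.58 in MDEC. Parental cells were the highest array, and the PECAM1+ clones lay below them by 0.14 ± 0.03 log2 units (SE), which did not pass the limma test (unadjusted p = 0.0057, adjusted p = 0.183). Twist2 was at 5.90 in the parental line, 5.84 in clone A1, 5.94, 5.78, 5.90 and 5.92 in clones A2 to A5, and 6.06 in MDEC. Both genes had a B16F10 range of 0.16 units, and only 15.0% and 15.3% of genes had a smaller one.

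Of the Zeb factors, zinc finger repressors of Cdh1, Zeb1 was far higher in MDEC than in B16F10, and Zeb2 was lower there by less than 4-fold. Zeb1 was at 5.27 in the parental line, 5.08 in clone A1, 5.22, 5.27, 5.15 and 5.24 in clones A2 to A5, and 9.68 in MDEC. All 6 B16F10 arrays lay within 0.19 log2 units, and its difference between PECAM1+ and PECAM1- samples was 0.05 ± 0.07 (SE; limma adjusted p = 0.774). Zeb2 was at 9.65 in the parental line, 9.19 in clone A1, 9.67, 9.68, 9.62 and 9.67 in clones A2 to A5, and 8.44 in MDEC. Parental cells lay among the PECAM1+ clones, clone A1 was the lowest B16F10 array, and MDEC was lower again. Zeb2 was higher in the PECAM1+ clones than in clone A1 by 0.47 ± 0.05 log2 units (SE; 1.38-fold; limma adjusted p = 0.0122), which passed with every PECAM1+ clone left out in turn, and did not differ past the threshold from parental cells (0.01 ± 0.05, limma adjusted p = 1.00). Snai1, Twist1 and Zeb1 held identical values on 2 or 3 B16F10 arrays (3 of 10 genes, where 50.9% of all genes had such a tie), which can make their spread too small.

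**Figure D2:**
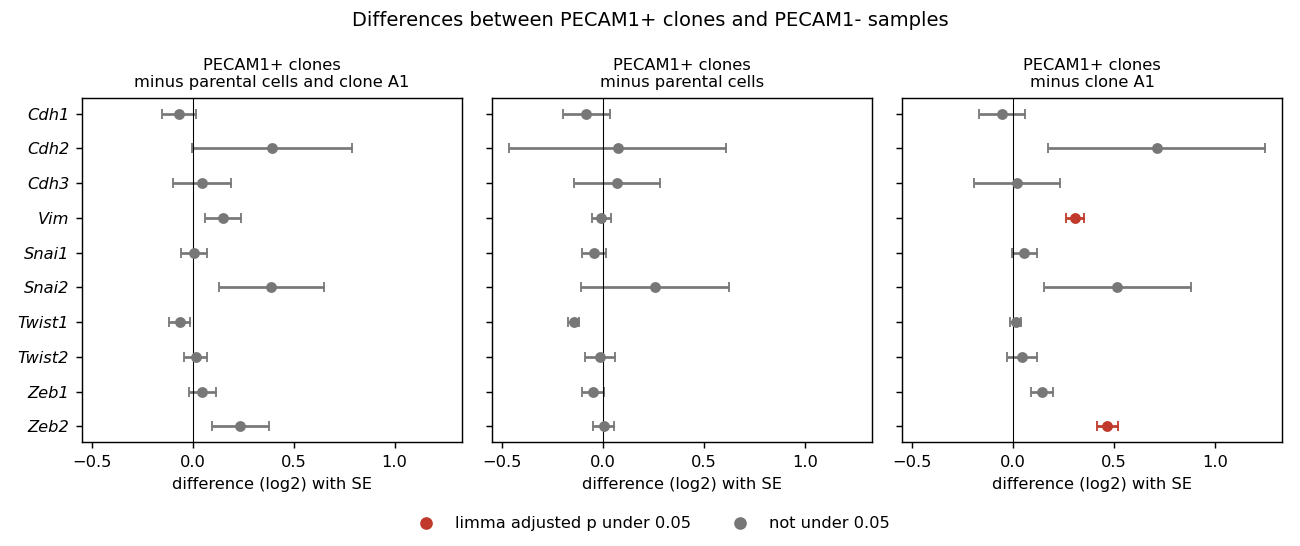
Difference of the PECAM1+ clones from both PECAM1- samples, from parental cells and from clone A1 (horizontal axis, log2, with SE from limma) for the 10 genes. Only Vim (0.31) and Zeb2 (0.47) against clone A1 have a limma adjusted p under 0.05, and Cdh2 and Snai2 have the widest errors.

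Of the 10 genes, Zeb1 and Snai2 were at least 4-fold higher in MDEC than in B16F10, and the other 8 did not pass that rule. MDEC is 1 array, so no test was made. A gene was counted where MDEC lay 4-fold or more from B16F10 (the average of the PECAM1+ and PECAM1- means) and beyond each of the 6 B16F10 values. Zeb1 was 4.49 log2 units (22.4-fold) higher in MDEC and Snai2 2.05 units (4.13-fold) higher, so 2 of 10 genes passed as higher and 0 as lower, where 2.72% and 2.01% of all genes passed (4.73% in either direction). For 8 of the 10 the MDEC value was beyond every B16F10 array, beside 52.9% of all genes. Snai2 lay at the edge of that rule, with 1.85 against the PECAM1+ clones alone, 1.98 against the mean of the 6 B16F10 arrays or without clone A1, and 2.11 against parental cells alone. At 2-fold, 5 of the 10 passed (13.3% of all genes): Snai1 was also higher in MDEC, by 1.69 units (3.23-fold), and Cdh2 and Zeb2 were lower, by −1.12 (2.18-fold) and −1.10 (2.15-fold). With quantile normalization Zeb2 was at −0.998 and just missed 2-fold. The other five differed by 0.20 or less in size: Cdh1 by −0.14, Cdh3 by −0.05, Vim by 0.20, Twist1 by −0.12 and Twist2 by 0.18.

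Most other cadherins did not pass the 4-fold rule in MDEC. Of 19 genes 3 passed as higher and 1 as lower, where 2.72% and 2.01% of all genes did: Cdh5 (VE-cadherin, of endothelial junctions) at 12.41 against 4.86 to 5.08 in B16F10, Cdh13 (T-cadherin, anchored in the membrane without a cytoplasmic tail) at 10.02 against 5.31 to 6.56, and Cdh6 (K-cadherin), which was 2.38 units higher. The lower one was Cdh19, a cadherin of neural crest and Schwann cell precursors, at 3.85 in MDEC and 8.56 to 9.77 in B16F10. The median of the 19 was 0.05, beside 0.00 over all genes. Among 12 catenin and complex genes none passed 4-fold. The largest differences were −1.93 for Ctnnal1 (alpha-catulin), −1.65 for Pkp4 (a p120-catenin relative) and 1.43 for Vcl (vinculin), and Ctnnb1 (beta-catenin) differed by 0.07.

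In MDEC 7 of 25 mesenchymal and 2 of 25 epithelial genes were at least 4-fold higher, and most of either list were not. Of 25 epithelial genes 2 passed as higher, the tight junction gene Ocln (7.87 against 4.05 to 4.27) and the keratin gene Krt18 (8.61 against 5.90 to 6.04), and 0 as lower, with a list median of 0.00. Of 25 mesenchymal genes 7 passed as higher (28.0%, where 2.72% of all genes did) and 0 as lower, with a list median of 0.06. Tenascin-C (Tnc) was at 11.46 against 4.88 to 5.29, Thy1 at 10.06 against 5.72 to 6.02, Mmp2 at 11.01 against 6.68 to 7.18, and the integrin genes Itgb3 and Itga5 and the fibronectin gene Fn1 differed by 3.04, 2.77 and 2.60. The genes farthest down, none of them past 4-fold, were Des (desmin, −1.91), Postn (periostin, −1.82) and Nes (nestin, −1.70). In the fibroblast and mural marker list, 1 of 10, Thy1, passed as higher, and 4 of 10 lay outside the B16F10 range (52.9% of all genes). Besides Thy1 these were Col3a1 (7.58 against 6.69 to 6.94), Pdgfra (5.92 against 5.46 to 5.69) and, lower, Pdgfrb (6.58 against 7.21 to 8.51). The summed linear level, which includes Thy1, was 1910 in MDEC and 754 to 1265 in B16F10. Dcn and Lum were at 5.05 and 3.06 in MDEC, inside the B16F10 ranges of 4.91 to 5.20 and 2.82 to 3.18. In the leukocyte list, 1 of 5, Cd68, passed as higher, at 11.18 in MDEC and 7.52 to 10.07 in B16F10. The part of other cells in the MDEC values was not tested, and in bulk RNA fewer cells of a type and less RNA per cell cannot be told apart.

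Of 23 other regulators of EMT, 3 were at least 4-fold higher in MDEC and 1 lower, beside the same 2.72% and 2.01% of all genes. The higher ones were the homeobox gene Prrx1 (8.59 against 4.04 to 4.55), the Hippo coactivator TAZ gene Wwtr1 (2.42) and Sox4 (2.33). The lower one was Id2, an inhibitor of E-box binding factors, at 6.73 in MDEC and 12.03 to 12.68 in B16F10. In the TGF-beta pathway, whose ligands induce Snail and Zeb genes, 5 of 19 passed as higher and 0 as lower (2.72% and 2.01% of all genes): the ligand genes Bmp4 (6.86), Inhba (3.76) and Tgfb1 (3.03), the receptor gene Tgfbr2 (3.47) and the repressor gene Tgif1 (2.41). None of 17 corepressors and modifiers of Snail and Zeb passed, with Ezh2 (−1.44) and Suz12 (−1.40), subunits of Polycomb complex 2, farthest down. The miR-200 probe sets differed little between MDEC and B16F10. Mir200a, Mir200b, Mir200c and Mir141 were at 5.66, 4.40, 5.30 and 3.57 in MDEC, each inside its B16F10 range, and Mir205 was 0.08 higher. These probe sets report the primary transcript or hairpin, and mature levels were not measured. All of them lay below the array medians of 6.12 to 6.18 in every sample. Without detection calls they may be at background, where a change could go unseen. A link to Zeb1 was not tested.

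**Figure D3:**
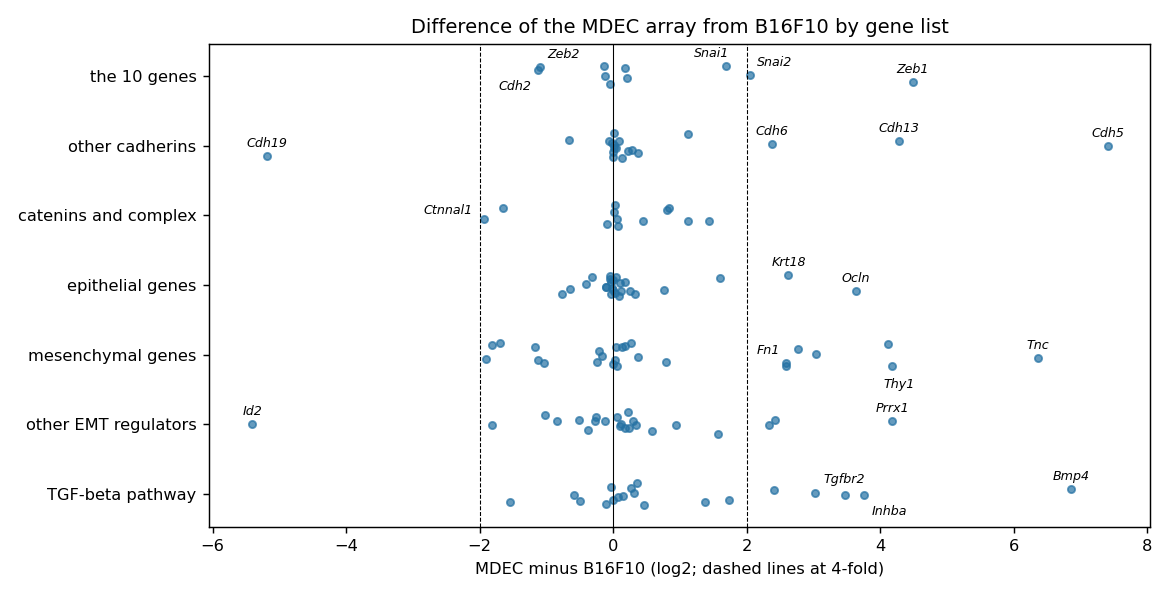
Difference of the MDEC array from B16F10 (horizontal axis, log2; 1 point per gene; dashed lines at 4-fold) for the 10 genes and 6 related lists, spread vertically within a list for legibility. Zeb1 (4.49) and Snai2 (2.05) lie past the 4-fold line on the right, and Cdh5 (7.41) and Cdh19 (−5.19) lie at the ends of the other cadherins.

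Within B16F10, 2 of 25 epithelial genes, Grhl2 and Tjp3, had no overlap between the PECAM1+ clones and the PECAM1- samples, where 16.4% of all genes had none. Tjp3, a tight junction gene, differed little (limma adjusted p = 0.815), and Grhl2 had the largest difference of the list. Grainyhead-like 2 is an epithelial transcription factor that activates Cdh1 and represses Zeb1. Both PECAM1- samples were at 6.21, and the clones were at 7.81, 7.54, 7.71 and 7.40 from A2 to A5, with MDEC at 6.14. The difference was 1.41 ± 0.13 log2 units (SE), with an unadjusted p of 5.4e-05 that did not pass over all genes (limma adjusted p = 0.142). Against clone A1 alone it passed (1.40 ± 0.18, limma adjusted p = 0.0152), and against parental cells alone it did not (1.41 ± 0.18, limma adjusted p = 0.132). Against both PECAM1- samples Cdh1 and Zeb1 differed by −0.07 ± 0.08 and 0.05 ± 0.07 (SE). Zeb1, at 5.08 to 5.27 in B16F10, lay below every array median, so a fall could go unseen. A link of Grhl2 to either gene was not tested. Against both PECAM1- samples, limma called 0 of 25 epithelial, 0 of 25 mesenchymal, 0 of 19 other cadherin and 0 of 12 catenin genes. It also called 0 of 23 regulator, 0 of 19 TGF-beta and 0 of 17 corepressor genes. Only 2 of 19938 genes (0.0100%) were called in this comparison, so these zeros do not set the lists apart. After Grhl2, the largest differences in these lists were 1.14 ± 0.64 (SE) for Fn1, −1.05 ± 0.50 for Klf4, −0.79 ± 0.76 for Skil and 0.72 ± 0.33 for Hmga2, with limma adjusted p from 0.537 to 0.666. The 7 cell cycle markers had a median difference of 2.02 in the same comparison, and none was called.

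Single genes stood apart in parental cells. Cdh13 was at 6.56 there, at 5.31 in clone A1 and at 5.48 to 5.69 in the PECAM1+ clones (difference from parental cells −1.01 ± 0.10, limma adjusted p = 0.0976). Tagln, a smooth muscle actin-binding protein gene, was at 6.41 in parental cells and at 5.28 to 5.47 in all 5 clones (−0.99 ± 0.09, limma adjusted p = 0.0976). Neither passed over all genes. Cdh19 ran the other way among the PECAM1- samples, at 8.56 in the parental line, 9.77 in clone A1 and 8.65 to 9.28 in the PECAM1+ clones, and its difference from clone A1 was −0.85 ± 0.26 (limma adjusted p = 0.102).

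Clone A1 was the lowest B16F10 array for Cdh2, Vim, Snai2, Zeb1 and Zeb2. It was alone lowest for these 5 of 10 genes and for 11 of 25 mesenchymal genes, beside 28.9% of all genes. Against clone A1, where 20.5% of all genes were called, limma called 3 of 25 mesenchymal, 3 of 23 regulator, 3 of 19 TGF-beta, 1 of 12 catenin and 5 of 17 corepressor genes. It called 2 mesenchymal genes as higher in the PECAM1+ clones, the collagen gene Col1a2 (0.72 ± 0.15, adjusted p = 0.0452) and Sparc (0.44 ± 0.07, adjusted p = 0.0252), and 1 as lower, Itgb3 (−0.89 ± 0.17, adjusted p = 0.0357). Of the regulators Hmga2, a chromatin protein of TGF-beta induced EMT, was higher (1.34 ± 0.05, adjusted p = 0.0021), as was Prrx1 (0.49 ± 0.02, adjusted p = 0.00293), and Wwtr1 was lower (−0.58 ± 0.08, adjusted p = 0.0188). Prrx1 held an identical value on 3 of the 4 PECAM1+ clones, as did Gsk3b below and Tagln above, so their errors may be too small. The catenin gene was Ctnnal1 (0.98 ± 0.16, adjusted p = 0.0248). The epithelial and reprogramming factor gene Klf4 differed in the PECAM1+ clones by −1.99 ± 0.16 (limma adjusted p = 0.0065), at 8.18 in clone A1 and 5.97 to 6.35 in the other 5 B16F10 arrays. The TGF-beta feedback genes Smad7 and Skil and the coreceptor gene Tgfbr3 were also lower than in clone A1, by −1.79 ± 0.34, −2.14 ± 0.42 and −1.16 ± 0.14, with limma adjusted p of 0.0368, 0.0392 and 0.013. Smad7 was at 9.97 in clone A1, 7.44 in parental cells and 7.81 to 8.58 in the PECAM1+ clones. Of the lists counted here, only the corepressors had a larger share called than all genes did. The epithelial list, with Klf4 here and Grhl2 above, and the other cadherins also had smaller shares than all genes. Corepressor calls went both ways, with Ezh2, Hdac2 and Smarca4 higher and Btrc and Gsk3b, which mark Snail for degradation, lower than in clone A1. All 7 measured cell cycle markers moved with these calls, higher than in clone A1 by a median of 3.96 log2 units. The fibroblast and mural list had clone A1 alone lowest for 5 of 10 genes, and its summed linear level was 754 in clone A1 and 884 to 1265 in the other 5 B16F10 arrays. Of 5 leukocyte markers only the macrophage gene Cd68 was raised, at 10.07 in clone A1 and 7.52 to 8.16 in the other 5 B16F10 arrays. That list summed to 1223 in clone A1 and to 343 to 442 in the others, and the sum followed Cd68. Ptprc, Itgam, Cd3e and Adgre1 were at 4.99, 4.73, 6.30 and 3.77 in clone A1, within or below the values of the other B16F10 arrays. The part of these marker lists in the differences from clone A1 was not tested.

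Clone A3 was the highest B16F10 array for several of the mesenchymal genes. It was alone highest for 4 of the 10 genes (Cdh2, Vim, Snai2 and Zeb2) and for 13 of 25 mesenchymal genes (52.0%), beside 12.6% of all genes and 3 of 25 epithelial genes. The mesenchymal list was not alone in this, with 5 of 12 catenin and complex genes and 6 of 19 TGF-beta genes. The other lists had 1 of 19 other cadherins, 2 of 23 regulators, 2 of 17 corepressors and 2 of 5 miR-200 and miR-205 genes. The margin was small for Vim (12.83, with parental cells at 12.77) and Zeb2 (9.68, with clone A2 at 9.67). Fn1 was at 11.91 in clone A3, 11.11 in clone A5 and 9.11 to 10.52 in the other 4 B16F10 arrays. The receptor tyrosine kinase gene Axl was at 10.10 in clone A3 and 8.62 to 9.42 elsewhere in B16F10, the smooth muscle actin gene Acta2 at 7.20 and 5.63 to 6.30, and the nestin gene Nes at 10.11 and 9.11 to 9.59. Melanocyte markers had their lowest median in clone A3, 11.94, where the other 5 B16F10 arrays had 12.15 to 12.57. Clone A3 was alone lowest for 4 of 8 of these markers, beside 10.4% of all genes. The fibroblast and mural list summed to 1265 linear units in clone A3 and to 754 to 1165 in the other 5, with clone A3 alone highest for 4 of its 10 genes, and Dcn and Lum were at 5.01 and 2.82 there. Clone A3 is 1 array, it was not tested against the other clones, and the part of these markers in its values was not tested.

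**Figure D4:**
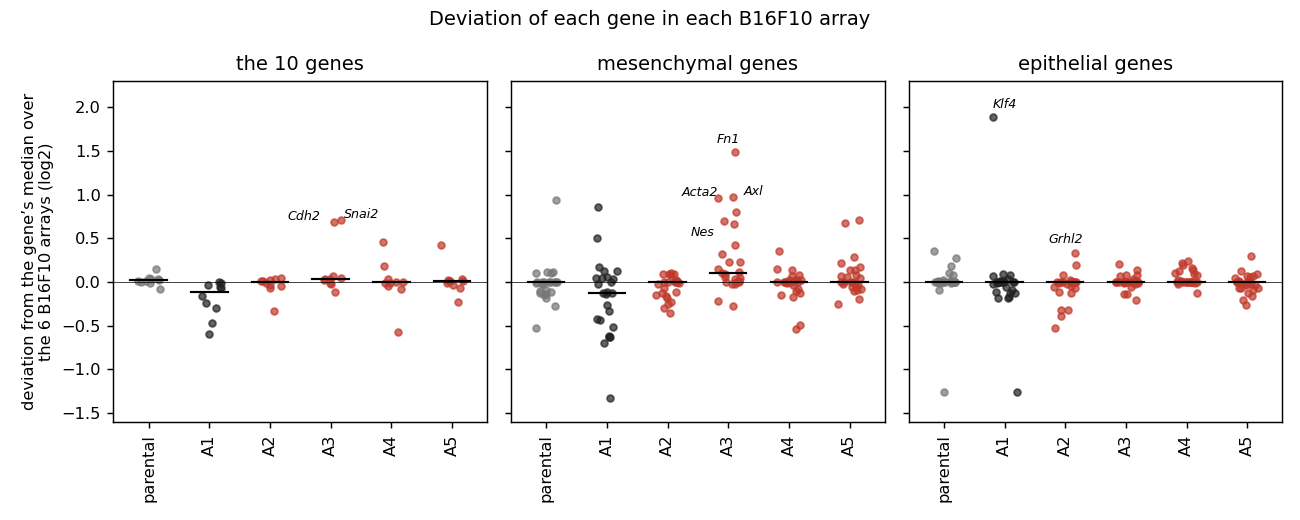
Deviation of each gene from its own median over the 6 B16F10 arrays (vertical axis, log2; 1 point per gene, black bar at the list's median) for the 10 genes, 25 mesenchymal and 25 epithelial genes, in each B16F10 sample. In clone A3 Fn1, Axl and Acta2 are the highest mesenchymal points and Snai2 and Cdh2 the highest of the 10 genes, in clone A1 the median of the mesenchymal genes lies below 0, and the lowest epithelial points of parental cells and clone A1 are Grhl2.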

How the data were processed

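The authors deposited log2 expression per probe set for each of 7 arrays, and Partek is the tool listed in the submitters' processing notes. Its version, summarisation, background correction, normalization and the genome build are not stated here. The log2 scale was inferred from the values. No detection calls accompany them, so signal over background is unknown, and precision rests on the few arrays. GEO's platform annotation gave a single symbol to 21789 of 35557 probe sets (21698 of them matched GRCm38.p6 by Entrez identifier). Where a gene had several (999 genes), the one with the highest mean was kept, leaving 19938 genes.

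B16F10 groups were tested by limma 3.58.1 under R 4.3.3 (lmFit, then eBayes with trend, two-sided), Benjamini-Hochberg adjusted over all 19938 genes, with calls at 0.05. MDEC was not fitted. Signed differences subtract the PECAM1- reference, and intervals are limma's at 95%. The fit was tested on simulated data with 200 planted changes among 19938 genes. With both PECAM1- samples as reference, 82% of 2-fold and 96% of 4-fold changes were recovered, with 4 false calls. With clone A1 these were 76% and 93%, with 10 false calls, and with parental cells 72% and 91%, with 8. Every simulated array was drawn with the mean and spread of the PECAM1+ clones. The gap between parental cells and clone A1 was thus not simulated, and recovery against both in the real data may be lower.

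The 10 genes, 8 related lists and 6 marker lists were chosen with earlier results of these data known. From each list the genes past the threshold were named, up to 6 by size, or else the 3 with the largest differences. Other genes named with clone A3, and Cd68, Tjp3, Des, Postn, Nes, Ctnnb1, Dcn, Lum, Col3a1, Pdgfra and Pdgfrb, were picked after their values were seen. Sequences came from RefSeq tables, which held start regions for 5 of the 10 genes. Alternatives covered scaling, filters, weighting, probe sets, the reference and left-out arrays.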

Additional observations from a re-analysis of the deposited data

Results flagged for a closer look

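Within the 6 B16F10 arrays, 4 single values lay far from the others, by a gap that was large beside the whole range. Dixon's criterion was used, which chance nominally meets in about 1 of 20 groups, and 20 groups of arrays were examined. The share of all genes that met it was not computed, so the count does not set the 10 genes apart. Clone A1 was alone lowest for 28.9% and alone highest for 26.4% of all genes. Zeb2 was at 9.19 in clone A1, where the other 5 arrays had 9.62 to 9.68. Vim was at 12.46 in clone A1, where the others had 12.73 to 12.83. Twist1 was at 5.81 in parental cells, where the others had 5.66 to 5.69. Cdh1 was at 5.89 in clone A5, where the others had 6.09 to 6.15. Among the 4 PECAM1+ clones alone, none of the 10 genes had such a value.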

How the results depend on the processing

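Of 395 alternative values for the 10 genes in the tested comparisons, 364 kept direction and side of the threshold and 26 changed sign. Where the sign changed, the main difference was at most 0.1505 in size. The alternative one was at most 0.1139 in size, with a limma adjusted p of at least 0.750. The causes were not tested. No paired analysis was possible because the labels give the groups no shared replicate numbers. Genes called between PECAM1+ and PECAM1- samples numbered 2, and 7 with quantile normalization, 6 with median centring, 5 without dim genes, 5 with robust eBayes and 1 with array weights. Leaving out 1 array gave from 1 to 4089 calls, the highest without parental cells, where Vim and Zeb2 passed as they do against clone A1, and 1 without each of clones A2 to A5. Against clone A1 the count was 4089, and 2108 to 3526 with a PECAM1+ clone left out (2108 without A5 and 2208 without A3). Against parental cells it was 2, and 7 with median centring, 14 without dim genes, and 0 to 1 with a clone left out (0 without A3, A4 or A5). In MDEC 943 genes passed, 603 without dim genes and 2643 at 2-fold. Under quantile normalization and median centring the sign turned for Snai1 (−0.0097 and −0.0193) and Twist2 (−0.0043 and −0.0102) between PECAM1+ and PECAM1- samples, for Cdh3 (−0.0099 and −0.0096) and Twist1 (−0.0384 and −0.0182) against clone A1, and for Zeb2 (−0.004 and −0.0137) against parental cells. With 1 array left out, differences between PECAM1+ and PECAM1- samples ranged from −0.0216 to 0.15 for Cdh3, −0.007 to 0.308 for Vim, −0.0453 to 0.0574 for Snai1, −0.1432 to 0.0136 for Twist1, −0.0138 to 0.0503 for Twist2 and −0.0483 to 0.1444 for Zeb1. Against clone A1 they ranged from −0.0827 to 0.0032 for Cdh1 and −0.0454 to 0.1262 for Cdh3, and against parental cells from −0.1139 to 0.3063 for Cdh2, −0.0272 to 0.0062 for Vim, −0.0316 to 0.0214 for Twist2 and −0.0033 to 0.0195 for Zeb2. The filter on dim genes left some of the 10 out, which then have no value.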
